A study of Mus musculus with 4 samples.

Results

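The genes described here encode the initiation and elongation factors of cytosolic translation. They were chosen by name alone, as every gene of the deposited matrices whose symbol begins with Eif1 to Eif6, Eef1 or Eef2 and is not marked as a pseudogene, which gave 69 of 31053 genes. No measured value entered that rule. The name rule also takes in regulators such as kinases and methyltransferases of the factors, and 1 gene, Eif2c5, whose prefix is an older name for Argonaute genes.

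The cells were dissociated with enzymes from the entire brain of 4 mice (C57BL/6J, male, postnatal day 90), 1 library per animal, and profiled by droplet 3′ sequencing, in which each captured RNA molecule is tagged with a unique molecular identifier (UMI). For 2 animals no inhibitors were used. For the other 2, actinomycin D and triptolide, which block transcription, were present from perfusion to digestion, with anisomycin, which blocks the ribosome's peptidyl transferase, during dissection and digestion. All 4 libraries carry the same batch label, each group has 2 animals, and the label does not name individual agents, so their effects cannot be told apart. The comparison asks whether transcripts change between death and lysis when the cells can still respond.

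Initiation begins when eIF2, carrying GTP and the initiator tRNA, joins the small ribosomal subunit with eIF1, eIF1A, eIF3 and eIF5, and eIF2B later recharges eIF2 with GTP. Kinases that phosphorylate eIF2α hold eIF2B back and so lower initiation under stress. The mRNA cap is bound by eIF4E, which recruits the scaffold eIF4G and the helicase eIF4A, and the 4E binding proteins compete with eIF4G for eIF4E. In elongation eEF1A brings aminoacyl-tRNA, its exchange factor eEF1B (eEF1B2, eEF1D, eEF1G) recharges it, and eEF2 moves the ribosome along until the kinase eEF2K switches it off. The brain is known for a switch of eEF1A from the form encoded by Eef1a1 to that encoded by Eef1a2 in mature neurons and muscle.

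After filtering, 9811 of 12487 cell barcodes were kept, with 4509965 to 6075040 UMIs per animal. Clusters built without the factor genes were named from marker genes, and 9 classes held at least 20 cells in every animal. Between 9 and 13 barcodes were shared by any pair of libraries. Olfactory ensheathing-like cells were kept from replicate 1 of each group only (29 and 32 cells), and from neither replicate 2. As a check of the treatment, Fos, an immediate early gene, stood at 268 and 146 UMIs per 1000000 UMIs (UPM) without inhibitors and at 5.54 and 4.98 with them. In what follows, values of single animals are given in the order replicates 1 and 2 without inhibitors, then replicates 1 and 2 with inhibitors.

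The 69 genes together held 198846 UMIs, 0.963% of all kept UMIs. Elongation factors took 32.5% of these, the genes of start codon selection and initiator tRNA delivery 28.8%, the cap binding and unwinding group 17.3% and the eIF3 complex 16.5%. The other roles held little, at 1.24% for eIF2B, 1.33% for the kinase and methyltransferases of elongation factors, 0.884% for the 4E binding proteins, 0.818% for Eif6 and 0.659% for the eIF2α kinases. These are counts of 3′ tags, 1 per captured molecule, so no length scaling was applied. The 5 genes with the most UMIs held 46.6% of the members' total. They were Eif1 (ENSMUSG00000035530, chr11:100319885-100322096), with 34161 UMIs, Eef1a1 (ENSMUSG00000037742, chr9:78478449-78489151), with 31743, Eef2 (ENSMUSG00000034994, chr10:81176631-81182498), with 11162, Eif4g2 (ENSMUSG00000005610, chr7:111067750-111083030), with 8067, and Eif4a2 (ENSMUSG00000022884, chr16:23107444-23114136), with 7533. All are protein-coding genes, and positions are on GRCm38 from GENCODE vM21. In all, 3 genes had no UMI in any kept cell, Eif2c5, Eif4e1b and Eif4ebp3. For the first 2 this allows a level of up to 0.145 UPM, and for Eif4ebp3, whose 3′ sequence lies wholly within another coding gene, it sets no limit. Eef1akmt3, a methyltransferase of eEF1A, had 4, 3, 0 and 1 UMIs.

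In all cells the factor genes together stood at 9368 and 9480 UPM without inhibitors and at 9893 and 9810 with them, so the groups did not overlap on this scale of total UMIs. The tests below scale libraries by TMM instead. That lowered both totals without inhibitors (to 4709564 and 5913237) and raised both with them (to 4670408 and 5331181). On that scale the order of the groups is reversed, so the direction of this sum depends on the scaling. Between cell classes the sums ranged more widely. As UPM of a class in an animal, the summed factor genes stood at 5869 ± 263 (SD, n = 4) in astrocyte-like cells and at 12694 ± 819 in macrophage/monocyte-like cells. The 4 astrocyte-like values were 5835, 6188, 5906 and 5547, below every value of the other tested classes, of which the nearest was 7541 in choroid plexus-like cells. The 4 macrophage/monocyte-like values were 13647, 12557, 12897 and 11673, all above the highest elsewhere, 11260 in mural-like cells. Endothelial-like (11105 ± 77.9), oligodendrocyte-like (10796 ± 319) and mural-like cells (10761 ± 595) followed, and their animals overlapped, so these neighbours were not told apart. Microglia-like cells (10202 ± 196) overlapped mural-like cells. Ependymal-like (8977 ± 368), neuron-like (8785 ± 869) and choroid plexus-like cells (8722 ± 888) overlapped one another. In choroid plexus-like cells 1 gene, Ttr, took 203801 to 345115 UPM, which lowers the UPM of every other gene there. This holds for all levels of that class given here, and its place among the classes without Ttr was not tested.

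**Figure D1:**
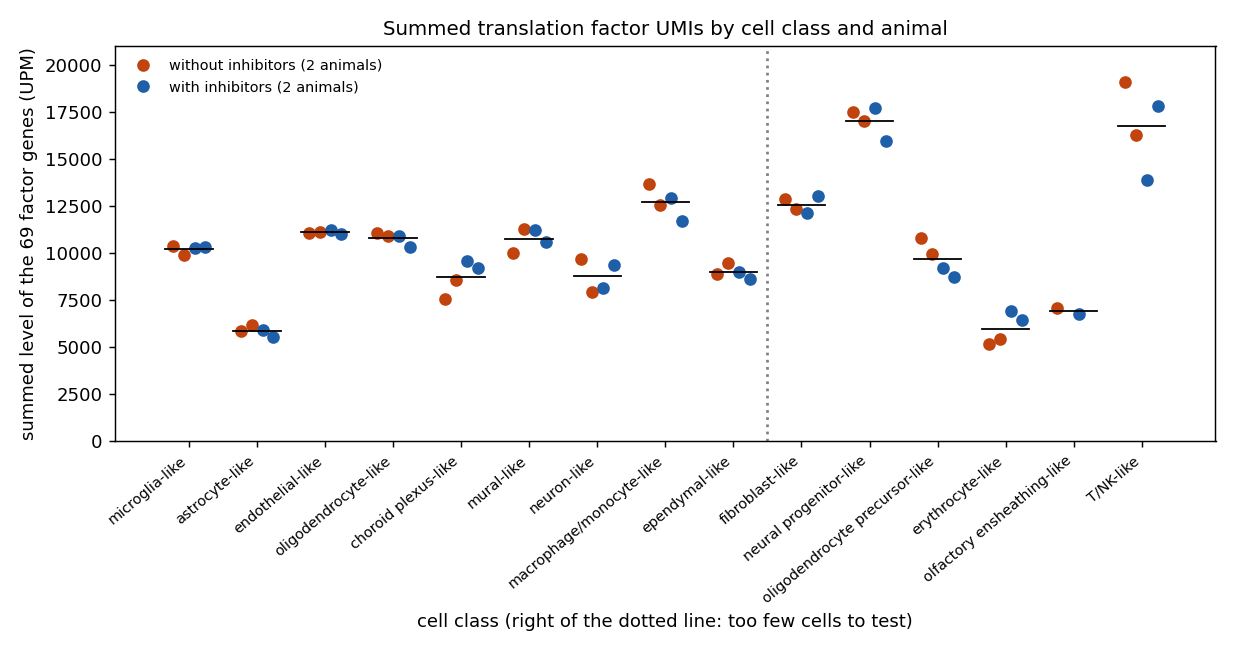
Summed level of the 69 translation factor genes in UPM (UMIs per 1000000 UMIs, vertical axis) in each cell class (horizontal axis). Each point is 1 animal, coloured by inhibitor group, and the black line is the mean. Among tested classes, left of the dotted line, astrocyte-like cells (5547 to 6188) lie below and macrophage/monocyte-like cells (11673 to 13647) above all others. In choroid plexus-like cells Ttr alone takes 203801 to 345115 UPM, which lowers the values of that class.

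Elongation factors were lowest in astrocyte-like cells as well, at 1287 ± 73.9 UPM against 3769 ± 117 in microglia-like and 5860 ± 778 in macrophage/monocyte-like cells. Genes of the cap binding group varied less, from 1224 ± 59.4 in astrocyte-like to 2126 ± 112 in neuron-like cells. Cytosolic ribosomal protein genes had their lowest level in the same class, 32378 ± 1533 UPM in astrocyte-like cells, and their highest in macrophage/monocyte-like cells, 197724 ± 19087. Of 61 factor genes with a mean of at least 20 UPM in their highest class, 11 had a profile over the 9 class means that correlated with that of the ribosomal protein sum at r above 0.8, and 24 had r below 0. The median r was 0.17. Class means share their animals, libraries and depth, so these values are descriptions across 9 points.

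Of those 61 genes, 12 (19.7%) had a highest class in which all 4 animals lay above every animal of the other 8 classes, against 38.1% of all 11964 genes at that level. A lowest class that stood apart in the same way was found for 6 (9.84%), against 5.27% of all genes. The genes whose highest class stood apart were Eef1a1, Eef1b2, Eef1d, Eif3k and Eif4ebp1 in macrophage/monocyte-like cells, Eef1a2, Eif4a2 and Eif4g1 in neuron-like cells, Eif1 and Eif4h in oligodendrocyte-like cells, Eif4ebp2 in mural-like cells and Eif5 in ependymal-like cells. Those with a lowest class apart were Eef2 and Eif3m in astrocyte-like, Eif4ebp1 in oligodendrocyte-like, Eif4g3 in choroid plexus-like, Eif4a1 in ependymal-like and Eef1akmt2 in macrophage/monocyte-like cells. Eef1akmt2 had 1 UMI in all macrophage/monocyte-like cells, 10.3 UPM in its animal, against 10.4 in the lowest neuron-like animal. Its place apart therefore rests on a single molecule.

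Among elongation factors, Eef1a1 had the largest difference between class means in UPM. Eef1a2 had the largest ratio of the highest to the lowest class mean, 88.6 against 6.80 for Eef1a1. The lowest class mean of Eef1a2, 4.16 UPM in ependymal-like cells, rests on 3 UMIs, so the size of that ratio is uncertain. The level of Eef1a1 was 3503, 3288, 3131 and 2505 UPM in macrophage/monocyte-like cells. It was 2050, 1957, 1921 and 1994 in microglia-like cells and 459, 504, 434 and 431 in astrocyte-like cells. In neuron-like cells it was 882, 389, 726 and 1072, and the lowest of these lay below every astrocyte-like value. Profiles across the 9 classes were compared with that of Eef1a1, on a log2 scale with 1 added. The most similar were those of Eif3k (r = 0.91), a subunit of eIF3, and Eef1b2 (r = 0.91), an exchange factor of eEF1A. Eif3h (r = 0.88) and Eef2 (r = 0.87) followed. Eef2, the translocase, stood at 258, 239, 250 and 245 in astrocyte-like cells and at 1003, 1103, 842 and 780 in macrophage/monocyte-like cells. Eef1g, of the same exchange complex, reached 529 ± 122 UPM in macrophage/monocyte-like cells against 156 ± 30.9 in astrocyte-like cells. Eif5a, whose product helps the ribosome past stalling sequences, ranged from 121 ± 33.4 in ependymal-like to 466 ± 147 in macrophage/monocyte-like cells.

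Eef1a2 (ENSMUSG00000016349, chr2:181147653-181157014) encodes the other form of eEF1A. In neuron-like cells it stood at 288, 564, 280 and 343 UPM, and no animal of another tested class was above 30.8. It made up 30.8% of the 584 Eef1a UMIs of neuron-like cells (95% exact interval 27.1 to 34.7), with single animals at 24.6%, 59.2%, 27.8% and 24.3%. The second animal without inhibitors was far above the other 3, and it was also the one with the lowest Eef1a1. In microglia-like cells the share was 0.998% of 9119 UMIs, in astrocyte-like cells 4.11% of 1557. Such low values stand beside those of a neuronal transcript: Snap25, a synaptic gene, stood at 1720 ± 244 UPM in neuron-like, 39.2 ± 7.35 in astrocyte-like and 26.1 ± 6.63 in microglia-like cells. Conversely, Csf1r and Cx3cr1, microglial genes, stood at 136 ± 75.3 and 118 ± 62.5 in neuron-like cells, against 2086 and 2420 in microglia-like cells. The part of RNA from other cells in these shares was not tested.

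**Figure D2:**
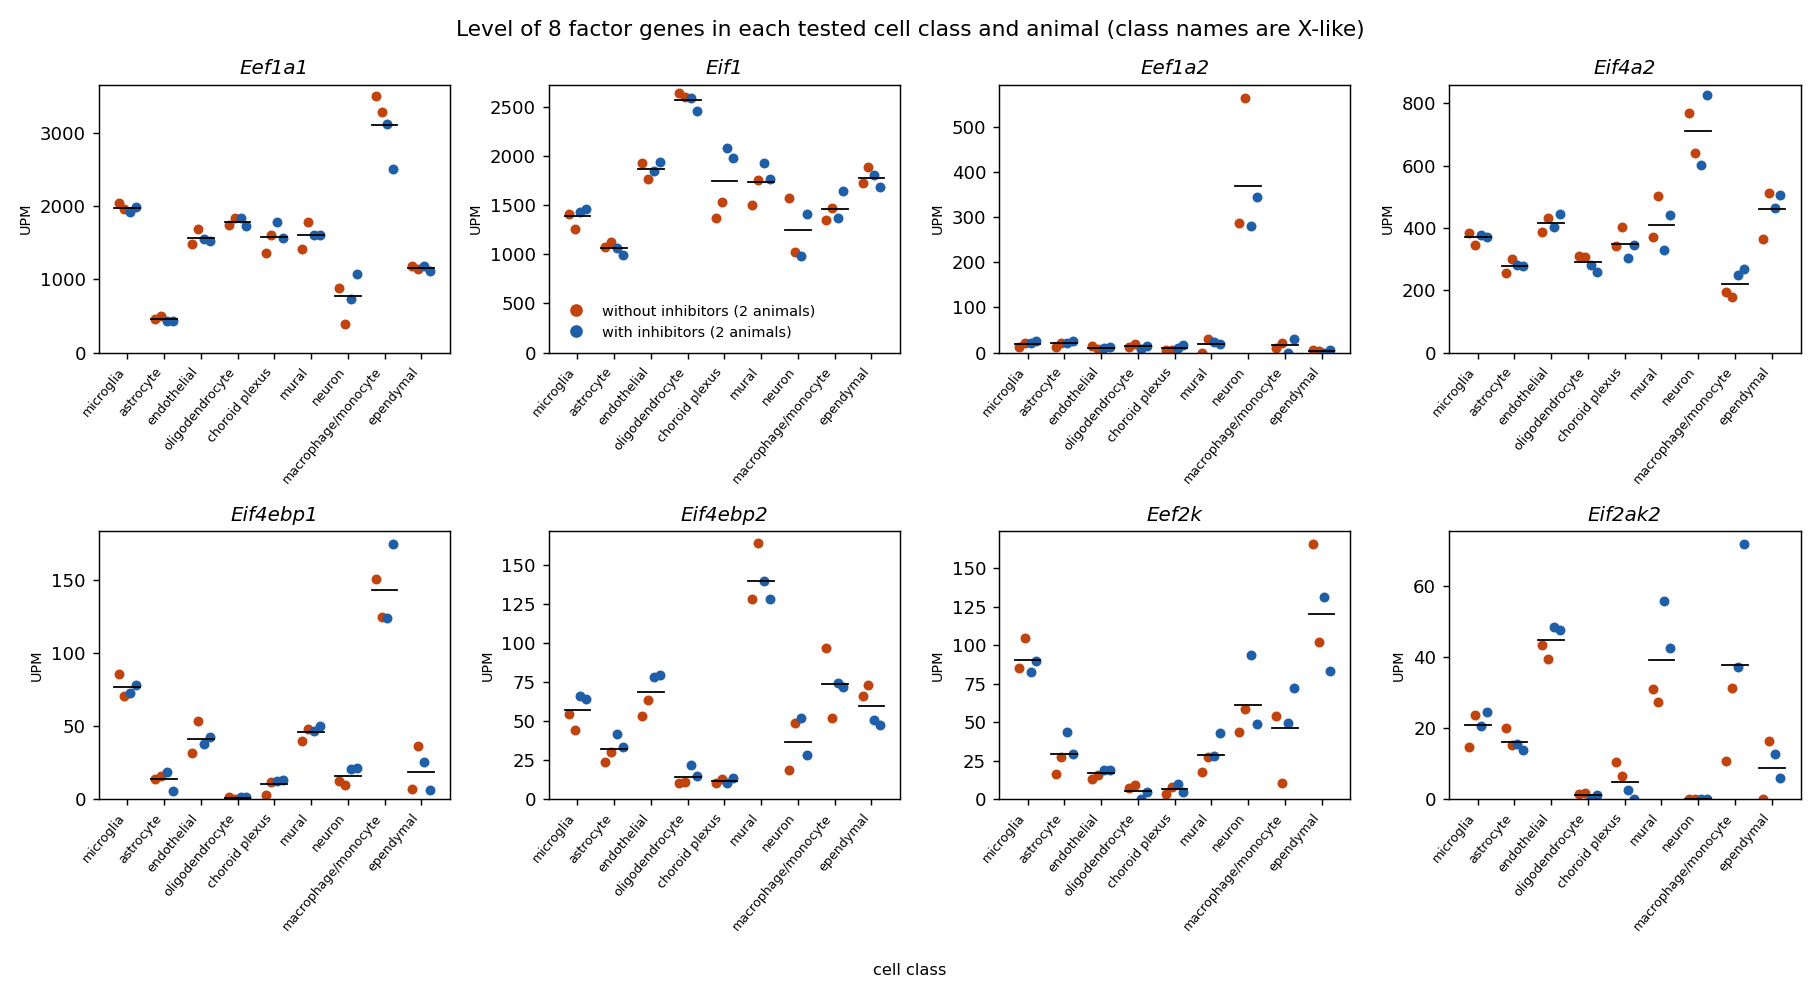
Level of 8 factor genes (one panel each, UPM on the vertical axis) in the 9 tested cell classes. Points are animals, coloured by inhibitor group, and black lines are means. Eef1a2 is high in neuron-like cells alone (280 to 564), and Eif4ebp1 is highest in macrophage/monocyte-like cells (124 to 175).

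The other paralogue sets also split by class. Reads at the 3′ end can tell most of these genes apart, since in 9 of the 10 sets no 50-base word from the last 500 bases of a coding transcript occurred in the paralogue. The exception was Eif3j2, of whose words 88.9% also occur in Eif3j1, so its counts (3.53% of 2518 UMIs in all cells) are uncertain. All words of Eif4ebp3 occur in another annotated coding gene, AC115631.1, so reads there cannot be assigned to it alone. Other annotated genes, none of them a coding gene, hold 65.4% of the words of Eef1a1, 42.0% of those of Eif2s3x, 22.6% of those of Eif4e and 18.0% of those of Eif4a2, so reads of these genes, and the shares of their sets, are less certain. In addition 14.3% of the words of Eif1 occur in a transcript of another coding gene.

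Eif4a2, 1 of 2 genes for the cap helicase, was highest in neuron-like cells, at 769, 642, 602 and 827 UPM. Its share of Eif4a1 and Eif4a2 UMIs was 76.8% in neuron-like cells (interval 72.8 to 80.6, animals 65.2 to 83.1) and 80.9% in ependymal-like cells (77.0 to 84.3, animals 74.3 to 88.5), and these classes overlapped. It was 37.7% in macrophage/monocyte-like cells (31.2 to 44.5, animals 31.5 to 47.3) and 49.2% in microglia-like cells (47.5 to 50.9). In ependymal-like cells the high share went with a low level of Eif4a1, 109 ± 29.8 UPM, while in neuron-like cells Eif4a1 was at 222 ± 76.8.

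Eif2s3y and Eif2s3x encode the γ subunit of eIF2 from the Y and X chromosomes. Eif2s3y stood at 120, 110, 123 and 104 UPM in astrocyte-like cells and at 13.6, 6.41, 7.53 and 0 in choroid plexus-like cells. Its share of the pair was 75.2% in astrocyte-like (interval 71.1 to 78.9), 66.8% in microglia-like (61.9 to 71.6) and 17 of 121 UMIs in choroid plexus-like cells (8.40% to 21.5%). No animal overlapped between astrocyte-like and choroid plexus-like cells. The X-linked copy varied less, from 27.5 ± 4.69 UPM in microglia-like to 59.0 ± 13.2 in neuron-like cells.

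**Figure D3:**
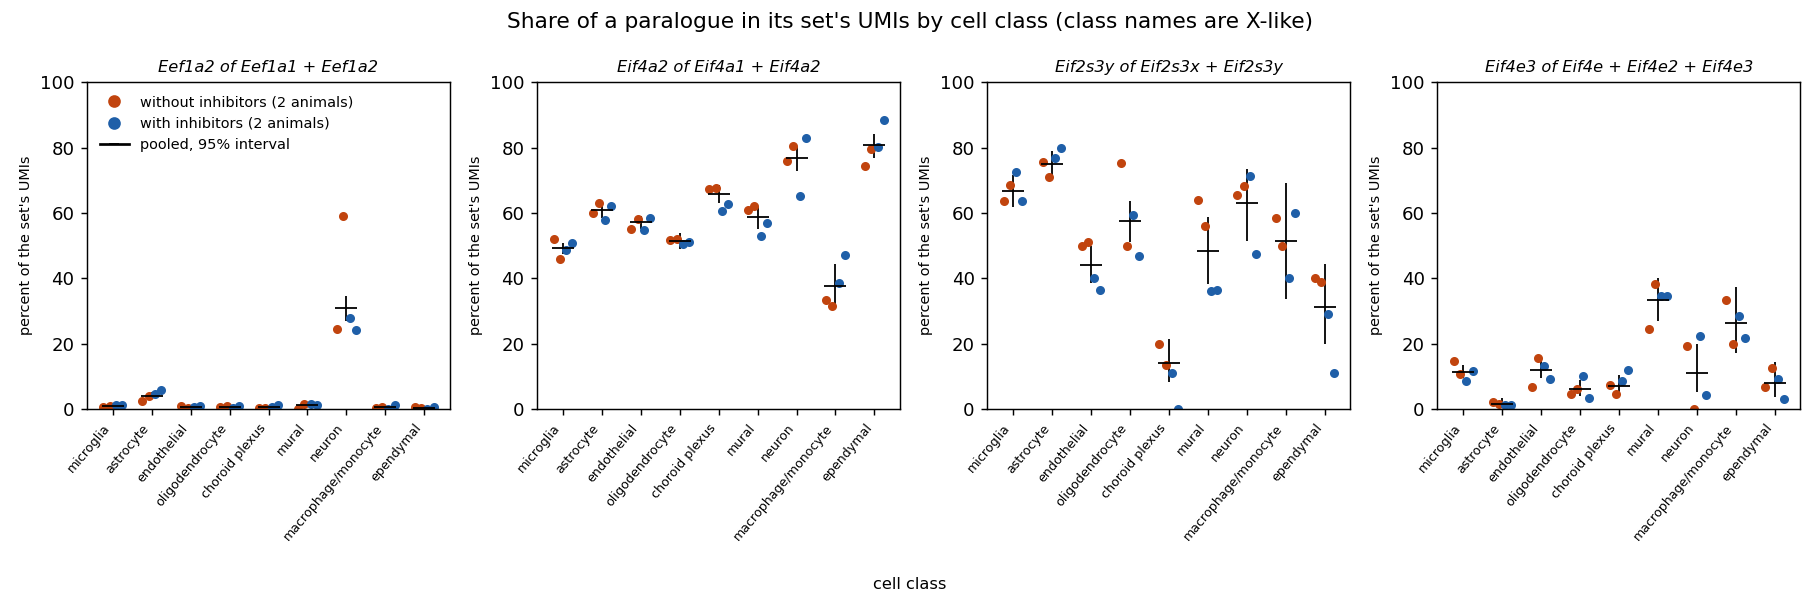
Share of Eef1a2, Eif4a2, Eif2s3y and Eif4e3 in the UMIs of their paralogue set (percent, vertical axis) in the 9 tested classes. Points are animals, coloured by inhibitor group, and black bars are the share over all animals with its exact 95% interval, which covers counting error only. Eef1a2 takes 30.8% in neuron-like cells, and Eif4a2 takes 80.9% in ependymal-like cells.

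Among cap-binding proteins, Eif4e3, a divergent relative of Eif4e, took 33.3% of the UMIs of its set in mural-like cells (interval 27.0 to 40.1) and 26.2% in macrophage/monocyte-like cells (17.0 to 37.3), against 1.55% in astrocyte-like cells (0.570 to 3.34). Eif4e2, whose product represses translation of some mRNAs, took 45.2% in microglia-like and 18.3% in choroid plexus-like cells. Of the eIF4G scaffolds, Eif4g2, which lacks the eIF4E binding site, made up 85.4% of UMIs in choroid plexus-like cells (83.4 to 87.3) and 46.2% in neuron-like cells (40.9 to 51.5), where Eif4g1 took 28.2% and Eif4g3 25.6%. Eif1b made up 14.3% of Eif1 and Eif1b UMIs in astrocyte-like and 5.71% in mural-like cells. Eif1ax, the X-linked eIF1A gene, made up 82.4% of its pair in oligodendrocyte-like and 42.7% in microglia-like cells, and Eif5a2 at most 7.34% of its pair, in ependymal-like cells. Eif1 itself stood apart in oligodendrocyte-like cells, at 2643, 2603, 2596 and 2462 UPM, with endothelial-like cells next at 1929, 1768, 1853 and 1945. Eif3f, an eIF3 subunit, ran from 118 ± 20.7 in astrocyte-like to 652 ± 105 in macrophage/monocyte-like cells.

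The regulators were unevenly spread. Eif4ebp1, a 4E binding protein gene, stood at 151, 125, 124 and 175 UPM in macrophage/monocyte-like cells, at 85.8, 70.7, 72.6 and 77.8 in microglia-like cells and at 1.46, 0, 1.56 and 1.16 in oligodendrocyte-like cells, where 3 UMIs were found in all. Eif4ebp2 was highest in mural-like cells, at 128, 164, 139 and 128, and low in choroid plexus-like (11.7 ± 1.59) and oligodendrocyte-like cells (14.4 ± 5.37). Eef2k, the kinase of eEF2, stood at 166, 102, 131 and 83.2 in ependymal-like cells and at 84.9, 105, 82.4 and 89.6 in microglia-like cells, which overlap. In oligodendrocyte-like (5.21 ± 3.89) and choroid plexus-like cells (6.29 ± 3.17) no animal reached 11 UPM.

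The 4 eIF2α kinases were scarce, with no mean above 45 UPM in a tested class. Eif2ak2 (PKR, activated by double-stranded RNA) stood at 43.4, 39.5, 48.5 and 47.6 in endothelial-like cells, at 39.2 ± 12.9 in mural-like and 37.7 ± 25.4 in macrophage/monocyte-like cells, which overlap them. It had 3 UMIs in oligodendrocyte-like cells and 0 in neuron-like cells, which at that depth allows up to 5.98 UPM. Eif2ak4 (GCN2, the sensor of uncharged tRNA) was highest in neuron-like cells, 31.4 ± 12.4, whose animals overlapped those of astrocyte-like cells at 16.5. Eif2ak1 (HRI) and Eif2ak3 (PERK, the sensor of the endoplasmic reticulum) ranged from 11.8 to 31.1 and from 4.63 to 15.8 over class means. The 5 eIF2B subunit genes had their highest class means between 21.4 (Eif2b3, oligodendrocyte-like) and 55.4 (Eif2b5, ependymal-like), with overlapping animals in neighbouring classes.

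No factor gene was called between the inhibitor groups in all cells. Genes were called in edgeR's quasi-likelihood test at a Benjamini-Hochberg adjusted p below 0.05 and an absolute log2 fold change above 0.58, as the value without over that with inhibitors. Of 65 factor genes that passed the filter on low counts, 0 were called, beside 5 of all 13735 genes tested (0.0364%), all of them higher without inhibitors. One factor gene had an unadjusted p below 0.05, and DESeq2 also called 0. The edgeR rule did not call the large difference of Fos. Fos, at 275 and 150 against 5.35 and 4.88 CPM (log2 5.37, SE 0.42), had an adjusted p of 0.0694 and was not called, while DESeq2 gave 7.86e-23. In sums over all cells, fewer cells of a type and less RNA per cell cannot be told apart. The median log2 fold change was 0.01 for the factors and -0.00395 for all genes. The 95% interval lay within 0.58 on either side of 0 for 58 of the 65 genes.

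Eif1 stood at 1656 and 1603 CPM (UPM after TMM scaling) without inhibitors and at 1674 and 1701 with them, a log2 difference of -0.05 (interval -0.22 to 0.12, adjusted p = 0.923 in edgeR). Eef1a1 stood at 1534 and 1585 against 1510 and 1519 CPM (log2 0.04, interval -0.13 to 0.21). Both genes had groups that did not overlap, by margins small against their intervals. Eef2, at 548 and 530 against 544 and 545 CPM, and Eif4g2, at 380 and 403 against 402 and 379, had overlapping animals. The interval of each of these 4 genes excludes a change by 0.58 in either direction.

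Both animals without inhibitors lay above both with them for 19 of the 65 genes (29.2%), against 19.9% of all genes, and below for 8 (12.3%), against 17.8%. The 3 largest differences among these were those of Eif4enif1, Eif4ebp2 and Eif3j2. Eif4enif1, which shuttles eIF4E into the nucleus, stood at 14.2 and 20.6 against 23.1 and 26.3 CPM (log2 -0.49, SE 0.19, adjusted p = 0.679 in edgeR). Eif4ebp2 stood at 41.6 and 46.8 against 54.0 and 52.9 CPM (log2 -0.27, SE 0.12, adjusted p = 0.706). Eif3j2, with 15 to 27 UMIs per animal, had a log2 difference of 0.41 (SE 0.34) and shares reads with Eif3j1.

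**Figure D4:**
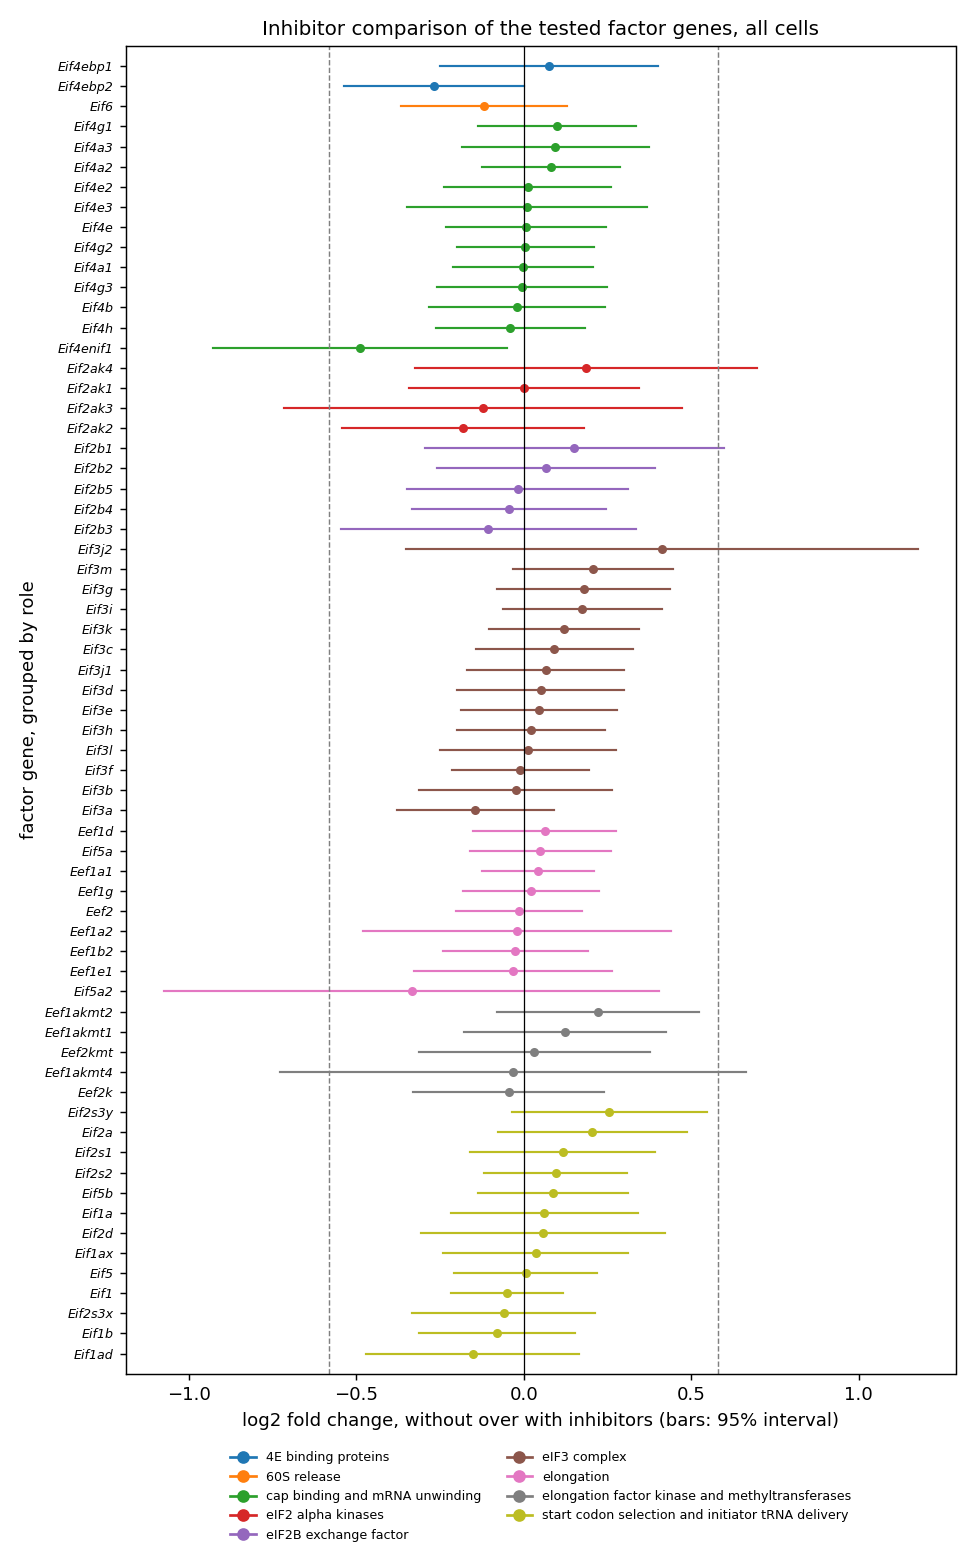
Log2 fold change without over with inhibitors in all cells (horizontal axis) for the 65 tested factor genes (rows), coloured by role, with 95% intervals from the edgeR fit. Dashed lines mark 0.58 on either side of 0. The intervals of 58 genes lie between the dashed lines, and none of the 65 genes was called.

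By role, 11 of 14 eIF3 genes lay above 0 and 3 below in all cells, with a median log2 of 0.06 and a range from -0.14 to 0.41. For start codon selection and initiator tRNA delivery 9 of 13 lay above 0 (median 0.06), for elongation 4 of 9 (median -0.01) and for cap binding and unwinding 7 of 12 (median 0.01). The eIF2B genes lay between -0.11 and 0.15, and the eIF2α kinases between -0.18 (Eif2ak2) and 0.19 (Eif2ak4). Eif4ebp1 stood at 33.1 and 40.8 against 33.2 and 37.1 CPM. None of these genes was called. With scaling to total UMIs in place of TMM the median log2 moved to -0.08 for all genes and to -0.07 for the factors, so the sign of a role's median here depends on the scaling.

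Microglia-like cells, in which Junb and Zfp36 were higher without inhibitors by log2 2.47 (SE 0.11) and 2.83 (SE 0.14), gave the same count for the factors. Fos, at 765 and 397 against 2.89 and 2.53 CPM (log2 7.69, SE 1.00), had an adjusted p of 0.582 in edgeR there and was not called, while DESeq2 gave 1.10e-30. Of 63 tested, 0 were called in edgeR or DESeq2, beside 38 of 8650 genes (0.439%), and 1 had an unadjusted p below 0.05. Both animals without inhibitors were higher for 9 factor genes (14.3%, against 17.5% of all genes) and lower for 8 (12.7%, against 16.3%). The lowest p belonged to Eif5b, the GTPase that joins the ribosomal subunits, at 138 and 142 against 113 and 110 CPM (log2 0.34, SE 0.13, adjusted p = 0.619 in edgeR). The 3 largest differences without overlap were all lower without inhibitors and rested on 11 to 35 UMIs per animal: Eif4enif1 (log2 -0.53, SE 0.33), Eif2b5 (-0.52, SE 0.30) and Eef1a2 (-0.41, SE 0.32). Eef1a1 stood at 2071 and 1983 against 1886 and 1986 CPM (log2 0.07, interval -0.12 to 0.25), and Eef2k at 85.7 and 106 against 80.9 and 89.3 CPM (log2 0.18, interval -0.13 to 0.49). For 40 of 63 genes the interval lay within 0.58 on either side of 0, and for 56 within 1.

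In astrocyte-like cells 0 of 58 factor genes were called, beside 4 of 8349 genes (0.0479%), and 4 had an unadjusted p below 0.05, Eef1g, Eif2a, Eef2k and Eif3g. The lowest p was that of Eef1g (log2 0.40, adjusted p = 0.874 in edgeR). Eif2a, which can deliver initiator tRNA without eIF2, stood at 52.3 and 61.0 against 33.8 and 42.3 CPM (log2 0.58, SE 0.26), Eef2k at 16.2 and 27.2 against 43.0 and 29.6 CPM (log2 -0.68, SE 0.32) and Eif4enif1 at a log2 of -0.55 (SE 0.38). Their adjusted p in edgeR was 0.953 or higher. In endothelial-like cells 0 of 62 were called, beside 3 of 8257 genes (0.0363%), and 0 had an unadjusted p below 0.05. Eif2b3 was lowest there (log2 -0.70, SE 0.39), and Eif2ak1 (0.66, SE 0.36) and Eif2s3y (0.53, SE 0.26) were highest.

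In oligodendrocyte-like cells 0 of 54 were called, beside 12 of 6458 genes (0.186%), with 1 unadjusted p below 0.05, that of Eif5b at 162 and 149 against 106 and 134 CPM (log2 0.37, SE 0.17). The largest differences without overlap were those of Eif2s1, the α subunit of eIF2 (log2 0.55, SE 0.30), Eif4e2 (-0.54, SE 0.28) and Eef1e1, of the tRNA synthetase complex (-0.49, SE 0.26). In mural-like cells 0 of 48 were called, beside 17 of 4791 genes (0.355%), and 2 had an unadjusted p below 0.05, Eif1b at 72.8 and 85.3 against 149 and 117 CPM (log2 -0.72, SE 0.31) and Eif1a (log2 -0.92, SE 0.46). Eif2s3y, at 72.8 and 47.7 against 40.7 and 28.3 CPM, had a log2 of 0.79 (SE 0.46).

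The 3 smallest tested classes gave wide intervals. Of 30 factor genes in neuron-like cells 0 were called, beside 1 of 3014 genes (0.0332%), of 25 in macrophage/monocyte-like cells 0, beside 8 of 1296 genes (0.617%), and of 40 in ependymal-like cells 0, beside 0 of 3939 genes (0%). Unadjusted p below 0.05 were found for 0, 0 and 1 factor genes, the last being Eif4g1 in ependymal-like cells (log2 -0.86, SE 0.41), and for none of the genes of the first 2 classes did the interval lie within 0.58. The largest differences without overlap were Eif3a (log2 -0.88, SE 0.48), Eif4h (0.79, SE 0.48) and Eif3h (0.67, SE 0.50) in neuron-like cells, and Eif5 (-0.60, SE 0.36), Eif3k (-0.53, SE 0.29) and Eif4a2 (-0.51, SE 0.34) in macrophage/monocyte-like cells. In ependymal-like cells Eif2b2 had 10, 13, 2 and 8 UMIs and the widest interval, from -0.33 to 2.74 on the log2 scale, and Eif3j1 of 0.64 (SE 0.34).

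Choroid plexus-like cells were the class with the most called genes, 236 of 4645 (5.08%), 195 of them higher and 41 lower without inhibitors. Of 48 factor genes tested there, 0 were called in edgeR. Unadjusted p below 0.05 were found for 6 of them. Eif1 came closest, at 1564 and 1527 CPM without inhibitors against 1948 and 1878 with them. Its difference passed the adjusted p (0.0149 in edgeR) but not the minimum fold, with a log2 of -0.31 (SE 0.08, interval -0.48 to -0.14). Its groups did not overlap, and DESeq2 gave an adjusted p of 0.0654. Over all alternatives its log2 stayed negative, and its adjusted p ranged from 0.00274 to 0.286. Eif6, which keeps the ribosomal subunits apart, stood at 29.3 and 35.6 against 56.3 and 66.8 CPM (log2 -0.87, SE 0.32, adjusted p = 0.0973). Eif3g, of eIF3, stood at 107 and 86.6 against 56.3 and 58.4 CPM (log2 0.74, SE 0.27, adjusted p = 0.0920), and Eif3m at 117 and 103 against 75.1 and 58.4 CPM (log2 0.67, SE 0.25, adjusted p = 0.103). With the replicate number as a block both were called higher, at adjusted p of 0.0418 and 0.0491 in edgeR. That made 2 called factor genes of 48, beside 306 of all 4645 genes tested. Eif4a2 (log2 0.40, SE 0.13), Eif4g3 (0.73, SE 0.39) and Eif1b (-0.41, SE 0.19) also had groups that did not overlap. In all, 10 of the 48 factor genes were without overlap and higher (20.8%), and 9 lower (18.8%). With 2 animals against 2, such a split has a p of 0.333 in an exact permutation test.

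Other measures moved with the groups in this class. Ttr, the main secreted product of choroid plexus cells, took 345115, 263207, 215726 and 203801 UPM, ribosomal protein genes took 60141, 66455, 93474 and 92471, and the UMIs of the class numbered 660915, 780075, 398505 and 226643. Their part in the values of the factor genes was not tested. With scaling to total UMIs in place of TMM, the median log2 of all genes there moved from -0.00999 to -0.18. Of all 4645 genes 284 were then called, 113 higher and 171 lower, and 1 factor gene, Eif6, was called lower. Without the second animal without inhibitors, which leaves 1 animal in that group, Eif3g had a log2 of 0.93 and Eif1 of -0.26. Without the first animal with inhibitors, which also leaves 1 in its group, the log2 of Eif1 was -0.28.

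**Figure D5:**
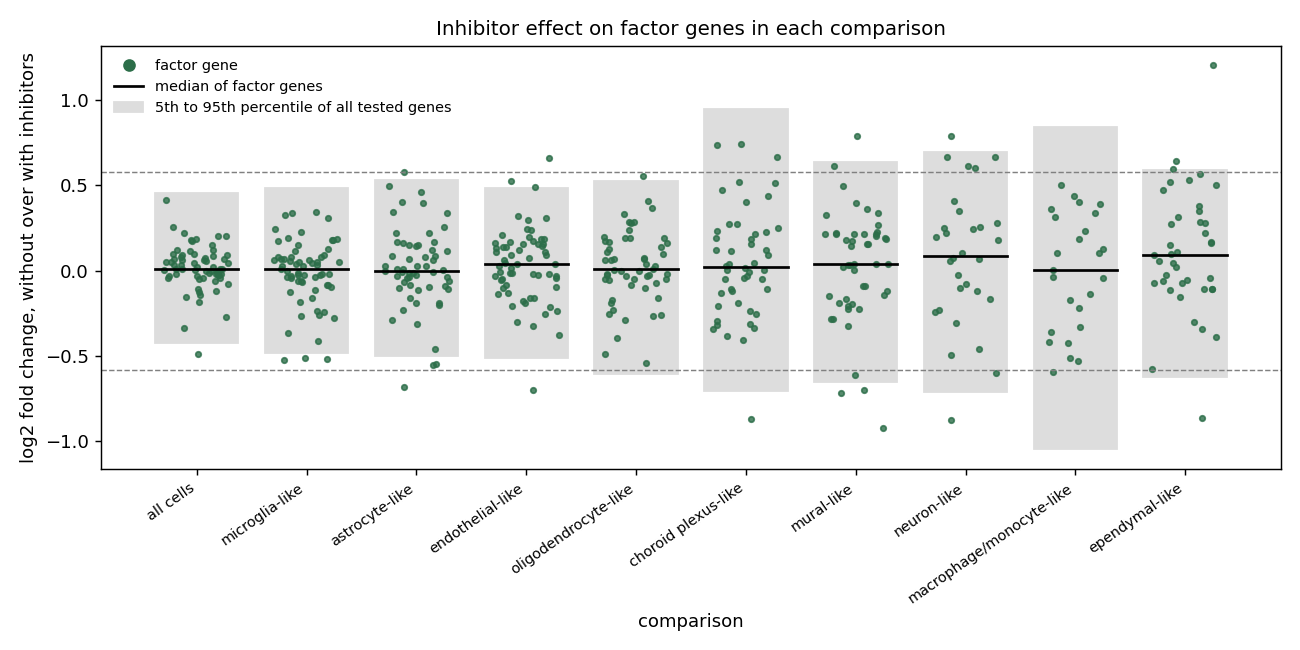
Log2 fold change without over with inhibitors (vertical axis) of each tested factor gene (points) in all cells and the 9 tested classes. Black lines are the medians of the factor genes, grey boxes span the 5th to 95th percentile of all tested genes, and dashed lines mark 0.58 on either side of 0. Medians of the factor genes lie between 0.000669 (astrocyte-like) and 0.09 (ependymal-like).

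Whether the inhibitor effect differed between classes was tested in 1 model over the 9 classes. Their sums come from the same 4 animals, 2 per group, so the sums of 1 animal are not independent of each other. Of 46 factor genes with at least 10 UMIs in every class, 0 were called at an adjusted p below 0.05 in edgeR, beside 35 of 3385 genes (1.03%), and 0 had an unadjusted p below 0.05. The lowest p were those of Eef1b2 (adjusted p = 0.672 in edgeR) and Eef2k (adjusted p = 0.699).

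The call rule was also applied to 3 further lists of translation genes. For all genes in all cells the median log2 was -0.00395, and -0.08 with scaling to total UMIs. Beside the 0.0364% of all genes called in all cells, 0 of 22 aminoacyl-tRNA synthetase genes were called (18 above 0, median log2 0.09), 0 of 13 termination, recycling and poly(A) binding genes (median 0.03) and 0 of 11 kinases, phosphatase subunits and repressors of initiation (median -0.02). Over the 9 classes 1 of these genes was called in 1 class, Dnajc3, an inhibitor of eIF2α kinases, which was higher without inhibitors in choroid plexus-like cells. In that class 13, 9 and 6 genes of the lists were tested, and 5.08% of all genes were called.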

How the data were processed

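The study sequenced 4 whole-brain libraries. The authors deposited raw UMI counts per gene and cell barcode that the submitters' processing notes tie to Cell Ranger 3.0.0 and mm10.

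Cells with under 400 genes or over 20% mitochondrial UMIs were removed (10067 left), and 256 doublets were removed against simulated doublets. Counts were log-normalized, and 2000 variable genes, 30 principal components and 15 neighbours gave 29 Leiden clusters at resolution 1, without the factor and activation genes. A class name needed 3 markers with a log2 difference of at least 1 and detection in 10% of cells. This gave 15 classes, and 1 cell was unnamed.

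Counts were summed per animal and tested in edgeR 4.0.16 (R 4.3.3, filterByExpr, TMM, robust quasi-likelihood, group alone), adjusted over all genes tested. DESeq2 1.42.0 was an alternative. Levels by class and paralogue shares (exact Clopper-Pearson intervals, counting error only) were not tested. With 2 animals against 2, an exact permutation test cannot go below a p of 0.333, its value whenever the groups do not overlap. All libraries carry 1 batch label, and p-values measure the spread between these libraries. The edgeR step was tested on simulated data.

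Genes were named by a rule: paralogue sets, called genes, the 3 largest differences without overlap in each comparison, the 5 genes with most UMIs, the 10 with the widest range between classes, eIF2B, eIF2α kinase and 4E binding protein genes, and genes without a UMI. Eif3m, Eif5b, Eif1b and others with a low p or a class apart were named after their values were seen. Members and lists were chosen with earlier results of these data known.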

Additional observations from a re-analysis of the deposited data

How the results depend on the processing

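The alternatives were DESeq2, other size factors, total UMI scaling, no filter on low counts, a fit that was not robust, no minimum fold, a replicate block, stricter cell filters, doublets kept, a coarser clustering and leaving out each animal. Of 151 recomputed counts of called factor genes, 147 stayed at 0. The other 4 were all in choroid plexus-like cells: 1 with total UMI scaling (Eif6), 2 with the replicate block (Eif3g and Eif3m, adjusted p = 0.0418 and 0.0491 in edgeR), 1 without a minimum fold (Eif1), and 0 to 1 when single animals were left out. The cause was not tested. Of all 4645 genes tested there, 284 were called with total UMI scaling, 306 with the replicate block and 370 without a minimum fold. In that class 29 of 48 adjusted p from DESeq2 were not given. The replicate block changed no other call of a factor gene. In the labels, equal replicate numbers are all that would pair animals. Olfactory ensheathing-like cells (29, 0, 32 and 0) and cell barcodes (2841, 3597, 2571 and 3478) went with the replicate number. Deviations of equal numbers correlated at 0.06 in all cells, 0.14 in macrophage/monocyte-like, -0.15 in neuron-like and between -0.02 and 0.05 in the other classes. Whether animals of equal number form pairs was not tested. In neuron-like cells the crossed pairing, added after seeing the data, gave 0 called factor genes, as did all cells without olfactory ensheathing-like cells, also added. All genes called in all cells numbered 5, 9 without those cells and 30 with the replicate block. Summed levels and shares moved by less than 1 SD between animals. In neuron-like and macrophage/monocyte-like cells no interval of a factor gene lay within 0.58 on either side of 0, so moderate changes could not be seen there. The parts of depth and of spread between animals in this were not tested.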

Other observations

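The smaller classes had too few cells to test. Neural progenitor-like cells (17 to 35 per animal) held 17480, 17020, 17681 and 15941 UPM of factor genes (UMIs per 1000000 UMIs), above every animal of the 9 tested classes. Eef1a1 stood there at 3242 ± 368 UPM (SD, n = 4), Eef2 at 1391 ± 362, Eif4g2 at 1141 ± 162 and Eif4a1 at 897 ± 147, and Eif4a1 took 62.7% of the 343 Eif4a1 and Eif4a2 UMIs (exact 95% interval 57.3 to 67.8). T/NK-like cells, 5 or 6 per animal, held 19081, 16288, 13856 and 17785 UPM of factor genes. Fibroblast-like cells held 12572 ± 437, and erythrocyte-like cells 5979 ± 837.

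Eif1b took 23.3% of Eif1 and Eif1b UMIs in oligodendrocyte precursor-like cells (interval 19.2 to 27.9), with a level of 371, 684, 604 and 377 UPM. In oligodendrocyte-like cells, the mature type, the share was 7.75% (7.16 to 8.38). In olfactory ensheathing-like cells, kept from replicate 1 of each group, Eif1b stood at 383 and 537 UPM. No test was run on these classes.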
